A study of Mus musculus with 28 samples.

Results

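Short interspersed elements (SINEs) and satellite repeats were followed in RNA immunoprecipitation (RIP) libraries of ZBP1 from mouse hippocampus. The members were chosen by their repeat class: a row of the deposited count table named as SINE or Satellite was kept if it held at least 100 counts summed over the 4 libraries. This kept all 34 SINE rows, in 6 families, and 7 of 8 satellite rows, giving 41 members of 9990 rows with that many counts and of 25227 rows in all. The row left out, CENSAT_MC, held 7 counts.

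All samples came from hippocampus of mice aged 9 months. Bulk RNA sequencing covered 24 libraries in 8 groups of 3: Ripk1D138N/D138N with 5xFAD, Ripk1D138N/D138N, 5xFAD and WT in a first cohort, and Zbp1-/- with 5xFAD, Zbp1-/-, 5xFAD and WT in another. RIP covered 5xFAD and WT mice. Per the labels, which give the 5xFAD genotype as "WT, 5xFAD", each RIP genotype had an immunoprecipitate (IP) made with an antibody to ZBP1 and an input with none, which gave 1 library each of 5xFAD IP, 5xFAD input, WT IP and WT input. The 5xFAD line carries mutant human transgenes driven in neurons by the Thy1 promoter, and no Zbp1 or Ripk1 mutation was labelled for the RIP libraries. How many animals gave each library is not given in the sources used here. No IP with another antibody or from a Zbp1 knockout was among the 4 libraries. With 1 library per group there was no test of any difference, and the 95% intervals given below cover counting error only.

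ZBP1 is an innate immune sensor whose Z-alpha domains bind RNA and DNA in the left-handed Z form, and it recruits RIPK1 and RIPK3 to trigger cell death and inflammation. Inverted copies of a SINE within a transcript can pair into duplexes, which the enzyme ADAR1 edits and which can feed such sensors. SINEs are short retroposons transcribed by RNA polymerase III. The rodent B1 family (named Alu in the table, after its primate relative) descends from the signal recognition particle RNA 7SL, while B2 and ID elements descend from transfer RNAs and B4 joins an ID-like part to a B1-like part. MIR elements are old repeats shared by mammals. Satellites are tandem arrays, and GSAT_MM is the major satellite that fills the pericentromeres of mouse chromosomes. No consensus sequence of these repeats was among the files used here, so none is printed.

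The libraries held 6808879 counts in 5xFAD IP and 9444018 in 5xFAD input, and 5742746 in WT IP and 8911548 in WT input. Counts per row were scaled by the library total and are given as CPM. Repeat rows took 92.4% and 91.4% of the counts in 5xFAD IP and input, and 91.0% and 91.8% in WT IP and input. The gene rows went against the labelled polyadenylated hippocampal RNA. Of 990 rows of olfactory receptor genes, 989 and 990 held counts in 5xFAD IP and input, and 981 and 987 in WT IP and input, although 92.8% of the 980 found in the hippocampal tables had a median of 0 CPM there. Ttn, which encodes the muscle protein titin, was at 1394 CPM of the gene-row total in 5xFAD input and 1322 in WT input, against a median of 4.63 CPM in the 24 bulk hippocampal libraries, all genotypes included. Camk2a, a kinase abundant in hippocampal neurons, was at 106 and 68.4 in those inputs, against a hippocampal median of 4311 CPM. The 7 markers of hippocampal neurons summed to 349 CPM of the gene-row total in 5xFAD IP, 387 in 5xFAD input, 276 in WT IP and 317 in WT input, against 4657 to 6444 CPM over the hippocampal libraries. The lists for astrocytes, oligodendrocytes and microglia also summed below their hippocampal range in all 4 libraries. For microglia the 5xFAD input was at the edge, at 241 CPM of the gene-row total against a hippocampal minimum of 243 CPM. The list for choroid plexus, at 131 to 160 CPM of the gene-row total, lay within its range of 48.6 to 4727 CPM, but below its median of 1478. That for red blood cells, at 50.6 to 107, lay within 4.92 to 108 CPM, above its median of 29.6. Endothelial markers summed to 170 in 5xFAD IP and 238 in 5xFAD input, and to 217 in WT IP and 258 in WT input, against 138 to 205 CPM, so all but the 5xFAD IP lay above that range. Across 22878 genes, counts in each of the 4 libraries had a Spearman correlation of 0.65 to 0.68 with the genomic span of the gene and of 0.53 to 0.61 with hippocampal expression, as a description across genes that share libraries. Hippocampal expression itself had a correlation of 0.45 with the genomic span. These scales come from separate tables and were not tested against each other. How much template other than mature messenger RNA contributed to the repeat rows was not tested. Thy1 matched the labels, with 751 and 1131 counts in 5xFAD IP and input, against 17 and 13 in WT IP and input. Cst7 and Gfap, listed for the same check, did not separate the genotypes. Cst7 held 9 and 18 counts in 5xFAD IP and input, against 11 and 9 in WT IP and input. Gfap held 21 and 36 counts in 5xFAD IP and input, against 15 and 28 in WT IP and input. For both genes the intervals of 5xFAD over WT included equal CPM in the IPs and in the inputs.

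All SINE members together took 19.9% of the counts in 5xFAD IP and 22.0% in 5xFAD input. In WT they took 21.3% of the IP and 22.0% of the input. SINEs were thus a slightly smaller share of each IP than of its input, and the shares of the 2 inputs lay close together. Satellite members took 3.67% of the 5xFAD IP and 1.604% of its input. In WT they took 3.44% of the IP and 2.69% of the input. The satellite share was larger in each IP, and the 5xFAD input had the lowest share of the 4 libraries.

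**Figure D1:**
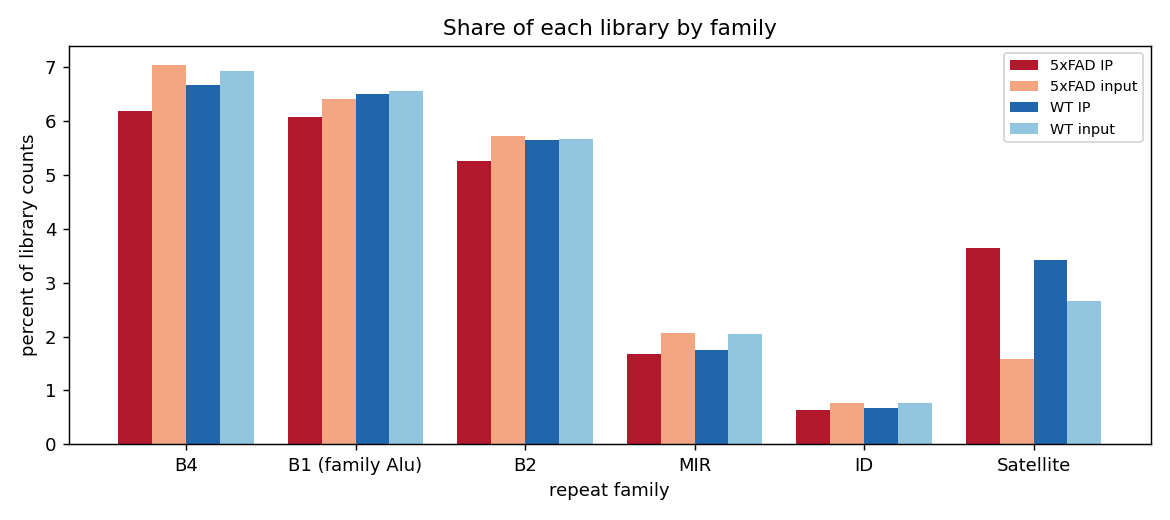
Percent of all library counts (y axis) taken by the 5 larger SINE families and by the satellite family, without CYRA11_Mm (x axis) in 5xFAD IP, 5xFAD input, WT IP and WT input, 1 library per bar. The satellite bar of the 5xFAD input (1.58%) stands below those of the other libraries, while the B1 bars lie between 6.09% and 6.56%.

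By column totals, the log2 ratio of IP over input for the summed SINE counts was -0.150 (95% interval -0.153 to -0.146) in 5xFAD and -0.049 (-0.052 to -0.046) in WT. For the summed satellite counts it was 1.19 (1.18 to 1.20) in 5xFAD and 0.36 (0.35 to 0.36) in WT. These values depend on the scaling, because the median row was itself lower in the IP, at -0.35 in 5xFAD and -0.16 in WT. Relative to the median row, SINEs were at 0.20 in 5xFAD and 0.11 in WT, and satellites at 1.54 in 5xFAD and 0.52 in WT. The sign for SINEs therefore turned with the scaling in each genotype and the sign for satellites did not. Among the other repeat classes, long interspersed elements (LINEs), with a larger share of counts than SINEs, were at 0.10 in 5xFAD and -0.025 in WT, and long terminal repeat (LTR) elements at -0.069 in 5xFAD and 0.0076 in WT, by column totals. DNA transposons, with a share near that of satellites, were at -0.17 in 5xFAD and -0.17 in WT.

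A fold of 2 in CPM was used as a rule of size. In 5xFAD 1 of the 41 members, GSAT_MM, was at least 2-fold higher in IP than in input and 0 were at least 2-fold lower, where 0.23% of all 9990 rows were higher and 7.48% lower by that rule, and 0.0857% of the 1167 repeat rows were higher and 0.0857% lower. In WT 0 members passed in either direction, against 0.42% of all rows higher and 2.16% lower, and 0% and 0.0857% of repeat rows. By the sign alone, 9 of 41 members had a higher CPM in the 5xFAD IP than in its input, against 16.6% of all rows and 28.4% of repeat rows. In WT 12 of 41 did so, against 30.8% of all rows and 30.4% of repeat rows. Among SINEs these were 5 of 34 in 5xFAD and 7 of 34 in WT, but with the median row set to a ratio of 1 they were 32 and 19. With TMM scaling they were 31 and 19, with size factors of DESeq2 32 and 19, and by the total of gene rows 11 and 5. Satellites above a ratio of 1 numbered 4 of 7 in 5xFAD and 5 of 7 in WT by column totals, and 5 and 7 with the median row set to 1.

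**Figure D2:**
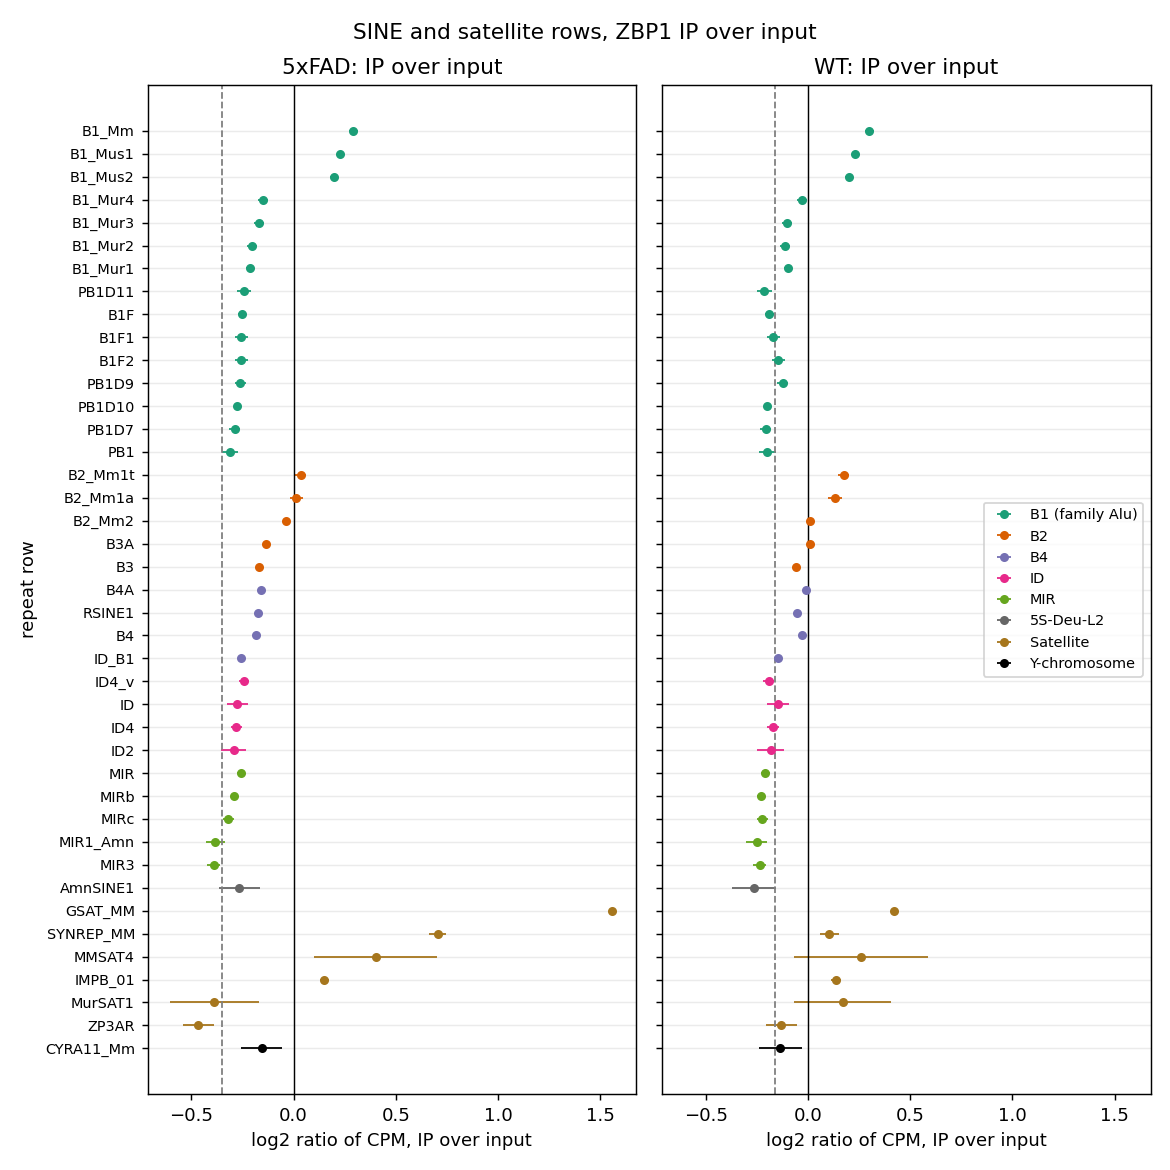
log2 ratio of CPM in IP over input (x axis) for each of the 41 members (y axis, coloured by family) in 5xFAD and in WT, with 95% counting intervals; the solid line marks equal CPM and the dashed line the median of all 9990 rows. GSAT_MM lies farthest right in both genotypes, at 1.56 in 5xFAD and 0.42 in WT, and B1_Mm, B1_Mus1 and B1_Mus2 lie right of all other SINEs.

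The B1 family was split by subfamily. By their names the rows belong to the house mouse (B1_Mm), the genus Mus (B1_Mus), a wider group of rodents (B1_Mur), and the proto-B1 elements that came before them (PB1). B1_Mm was at 4579 CPM in the 5xFAD IP and 3741 CPM in the 5xFAD input, against 4895 CPM in the WT IP and 3975 CPM in the WT input. B1_Mus1, the most counted B1 row, was at 11249 CPM in the 5xFAD IP and 9597 in the 5xFAD input, against 12048 in the WT IP and 10283 in the WT input. B1_Mus2 was at 7477 CPM in the 5xFAD IP and 6527 in the 5xFAD input, against 8069 in the WT IP and 7022 in the WT input. In these 3 rows each IP lay above its input and each 5xFAD library below its WT counterpart.

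By column totals their log2 ratios of IP over input nearly coincided between genotypes. B1_Mm was at 0.29 in 5xFAD (0.27 to 0.31) and 0.30 in WT (0.28 to 0.32). B1_Mus1 was at 0.23 in each genotype, and B1_Mus2 at 0.20 in each. Relative to the median row they were higher in 5xFAD than in WT, with B1_Mm at 0.64 in 5xFAD and 0.46 in WT, B1_Mus1 at 0.58 and 0.39, and B1_Mus2 at 0.54 and 0.36. That gap rests on the choice of reference, since 8823 of the 9990 rows were gene rows. Gene rows had a median of -0.40 in 5xFAD and -0.18 in WT. Repeat rows had nearly the same median in each genotype, at -0.089 and -0.096. Among the 1167 repeat rows with at least 100 counts, B1_Mm ranked 23rd from the top in 5xFAD and 29th in WT. The older B1 rows stood lower, with the 4 B1_Mur rows between -0.21 and -0.15 in 5xFAD and between -0.11 and -0.028 in WT. The 3 B1F rows lay between -0.26 and -0.25 in 5xFAD and between -0.19 and -0.15 in WT, and the 5 PB1 rows between -0.31 and -0.24 in 5xFAD and between -0.21 and -0.12 in WT. For the abundant PB1D10 the CPM was 6730.04 in the 5xFAD IP and 8149.7 in the 5xFAD input, against 7166 in the WT IP and 8218 in the WT input.

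Ratios between rows of the same library do not depend on the scaling. For each count of B1F, an older B1 row, there were 0.963 counts of B1_Mm in the 5xFAD IP and 0.661 in the 5xFAD input, against 0.983 in the WT IP and 0.701 in the WT input. B1_Mm thus made up 1.46 times as much per B1F count in the IP as in the input in 5xFAD, and 1.40 times in WT. The figure was 1.40 in 5xFAD and 1.34 in WT for B1_Mus1, and 1.36 and 1.31 for B1_Mus2. For B1_Mur4, the highest of the other rows, it was only 1.07 in 5xFAD and 1.12 in WT. The proto-B1 rows lay between 0.96 and 1.01 in 5xFAD and between 0.98 and 1.05 in WT. The 3 mouse-lineage rows were set apart from the rest in the same order in both genotypes, while the older rows differed from each other by little. Near-identical copies are most common in these young subfamilies, and how reads that map to many copies were assigned is not given in the sources used here; its part in the result was not tested.

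**Figure D3:**
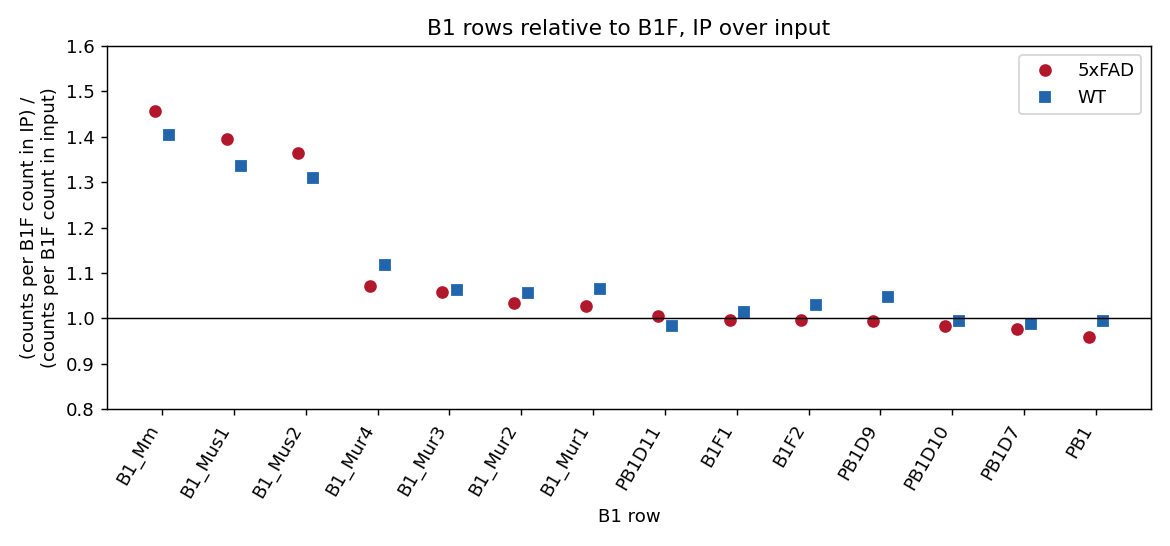
Counts of each B1 row per count of B1F in the IP, divided by the same quantity in the input (y axis), for 14 B1 rows (x axis) in 5xFAD and WT, 1 library pair per point. B1_Mm, B1_Mus1 and B1_Mus2 lie between 1.31 and 1.46, and the other rows between 0.96 and 1.12.

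The B2 family showed a smaller step of the same kind. B2_Mm1t was at 2804 CPM in the 5xFAD IP and 2737.5 in the 5xFAD input, against 3159 in the WT IP and 2798 in the WT input. B2_Mm2 was at 9546 CPM in the 5xFAD IP and 9804 in the 5xFAD input, against 10125 in the WT IP and 10055 in the WT input. B3, an older relative of B2 and the most counted SINE row, was at 23234 CPM in the 5xFAD IP and 26134 in the 5xFAD input, against 24685 in the WT IP and 25659 in the WT input. Only for B2_Mm1t did the IP lie above the input in both genotypes among these 3 rows, by column totals. Its log2 ratio was 0.035 (0.0078 to 0.062) in 5xFAD and 0.18 (0.15 to 0.20) in WT. B2_Mm1a was also higher in each IP, at 0.014 (-0.019 to 0.047) in 5xFAD and 0.13 (0.10 to 0.17) in WT. B3A was at 15221 CPM in the 5xFAD IP and 16736 in the 5xFAD input, against 16468 in the WT IP and 16368 in the WT input. Per count of B3 there was 1.15 times as much B2_Mm1t in the IP as in the input in 5xFAD and 1.17 times in WT. For B2_Mm2 per count of B3 it was 1.10 in 5xFAD and 1.05 in WT. The 3 B2_Mm rows summed were at -0.017 in 5xFAD and 0.059 in WT, and both B3 rows summed at -0.16 in 5xFAD and -0.030 in WT.

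The B4 family took the largest share of any SINE family in each library, at 6.18% of the 5xFAD IP and 7.05% of the 5xFAD input, against 6.66% of the WT IP and 6.93% of the WT input. B4A was at 19865.5 CPM in the 5xFAD IP and 22151 in the 5xFAD input, against 21383 in the WT IP and 21531 in the WT input. RSINE1 was at 16702 CPM in the 5xFAD IP and 18842 in the 5xFAD input, against 17933 in the WT IP and 18603 in the WT input. By column totals all 4 rows had a lower CPM in the IP in each genotype, though the WT interval of B4A included equal CPM. Relative to the median row all 4 lay higher, between 0.093 and 0.19 in 5xFAD and between 0.015 and 0.15 in WT. B4 itself was at 11227 CPM in the 5xFAD IP and 12742 in the 5xFAD input, against 12209.7 in the WT IP and 12450.4 in the WT input. ID_B1 was at 14023 CPM in the 5xFAD IP and 16733 in the 5xFAD input, against 15121 in the WT IP and 16754 in the WT input. It was the lowest of the 4 rows by its log2 ratio, with -0.25 in 5xFAD and -0.15 in WT, where the others lay between -0.18 and -0.16 in 5xFAD and between -0.053 and -0.010 in WT.

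ID elements gave lower CPM in each IP too, by column totals. ID4_v was at 2766 CPM in the 5xFAD IP and 3270.4 in the 5xFAD input, against 2849 in the WT IP and 3255 in the WT input. ID4 was at 2349 CPM in the 5xFAD IP and 2851 in the 5xFAD input, against 2536 in the WT IP and 2856 in the WT input. The less counted rows ID and ID2 had log2 ratios of -0.28 and -0.29 in 5xFAD and of -0.15 and -0.18 in WT. The family as a whole was at -0.26 (-0.28 to -0.25) in 5xFAD and -0.18 (-0.20 to -0.16) in WT. Relative to the median row the ID family was at 0.084 in 5xFAD and -0.016 in WT. Bc1, the neuronal RNA from which rodent ID elements spread, held 2 counts in the 5xFAD IP and 4 in its input, against 2 in the WT IP and 1 in its input, too few for a ratio. Rn7s1 and Rn7s2, which encode the 7SL RNA ancestral to B1, each held the same 4 and 7 counts in 5xFAD IP and input and 5 and 2 in WT IP and input.

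The old MIR elements and AmnSINE1, a repeat shared across amniotes, had lower CPM in each IP in all 6 rows. MIRb was at 5945 CPM in the 5xFAD IP and 7263 in the 5xFAD input, against 6116 in the WT IP and 7179 in the WT input. MIR3 was at 2014 CPM in the 5xFAD IP and 2640.3 in the 5xFAD input, against 2208 in the WT IP and 2599.55 in the WT input. AmnSINE1 was at 189 CPM in the 5xFAD IP and 228 in the 5xFAD input, against 188 in the WT IP and 226 in the WT input. In each of these rows both IPs lay below both inputs. The lowest SINE ratio was that of MIR3 in 5xFAD, at -0.39 (-0.42 to -0.36), and that of AmnSINE1 in WT, at -0.26 (-0.37 to -0.16). MIR1_Amn was at -0.38 in 5xFAD and -0.25 in WT, MIR at -0.26 and -0.21, and MIRc at -0.32 and -0.22. MIR3 and MIR1_Amn were the only SINE rows at or below the median row in 5xFAD, and 15 SINE rows were so in WT. Of the 1167 repeat rows, 1061 lay above the median row in 5xFAD and 746 in WT.

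GSAT_MM stood apart from every other member. It was at 29900.5 CPM in the 5xFAD IP and 10172 CPM in the 5xFAD input, against 28079 CPM in the WT IP and 20996 CPM in the WT input. Both IPs lay above both inputs, and the 5xFAD input lay far below the other 3 libraries. The fold of IP over input was 2.94 in 5xFAD (log2 ratio 1.56, 1.54 to 1.57) and 1.34 in WT (0.42, 0.41 to 0.43). GSAT_MM ranked first among the 1167 repeat rows in 5xFAD and 13th in WT. The gap between genotypes lay in the inputs: the 5xFAD input over the WT input was at 0.484-fold (log2 ratio -1.05), and the 5xFAD IP over the WT IP at 1.06-fold (0.091). GSAT_MM was the 1 member at least 2-fold lower in the 5xFAD input than in the WT input and 0 members were as much higher, where 0.0501% of all rows were lower and 0.24% higher. Between the IPs 0 members passed in either direction, against 0.561% of all rows at least 2-fold higher in the 5xFAD IP and 3.41% lower. Per count of IMPB_01, another satellite row, there were 6.45 counts of GSAT_MM in the 5xFAD IP and 2.43 in the 5xFAD input, against 6.29 in the WT IP and 5.17 in the WT input. The 5xFAD input was again the library that differed.

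SYNREP_MM was at 1576 CPM in the 5xFAD IP and 967 in the 5xFAD input, against 1194 in the WT IP and 1110.1 in the WT input. Its log2 ratio of IP over input was 0.70 (0.66 to 0.74) in 5xFAD and 0.11 (0.06 to 0.15) in WT. Unlike GSAT_MM it also differed between the IPs, with a log2 ratio of 0.40 for 5xFAD over WT, beside -0.20 between the inputs. IMPB_01 was at 4639 CPM in the 5xFAD IP and 4179 in the 5xFAD input, against 4467 in the WT IP and 4061 in the WT input. By column totals it was higher in each IP by nearly the same amount, at 0.15 in 5xFAD and 0.14 in WT. Relative to the median row, a reference made up mostly of gene rows, it was at 0.50 in 5xFAD and 0.30 in WT. The median repeat row lay at nearly the same log2 ratio in each genotype, -0.089 in 5xFAD and -0.096 in WT. MMSAT4, the least counted member, was at 26.7 CPM in the 5xFAD IP and 20.2 in the 5xFAD input, against 24.2 in the WT IP and 20.2 in the WT input. Its interval included a log2 ratio of 0 in WT (-0.069 to 0.59) and not in 5xFAD (0.10 to 0.70).

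The other 3 satellites were not higher in both IPs. ZP3AR was at 311 CPM in the 5xFAD IP and 429.6 in the 5xFAD input, against 388 in the WT IP and 424 in the WT input. MurSAT1 was at 40.1 CPM in the 5xFAD IP and 52.4 in the 5xFAD input, against 44.2 in the WT IP and 39.3 in the WT input. CYRA11_Mm, listed under the Y chromosome, was at 199 CPM in the 5xFAD IP and 222 in the 5xFAD input, against 203 in the WT IP and 222 in the WT input. ZP3AR had the lowest ratio of all members in 5xFAD (-0.47, -0.54 to -0.39), with -0.13 in WT, and CYRA11_Mm the lowest satellite ratio in WT (-0.13), with -0.16 in 5xFAD. Without GSAT_MM the satellites summed to 0.679% of the 5xFAD IP and 0.587% of the 5xFAD input, against 0.632% of the WT IP and 0.588% of the WT input. Their summed log2 ratio of IP over input was then 0.21 in 5xFAD and 0.10 in WT, so GSAT_MM carried most of the satellite difference.

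**Figure D4:**
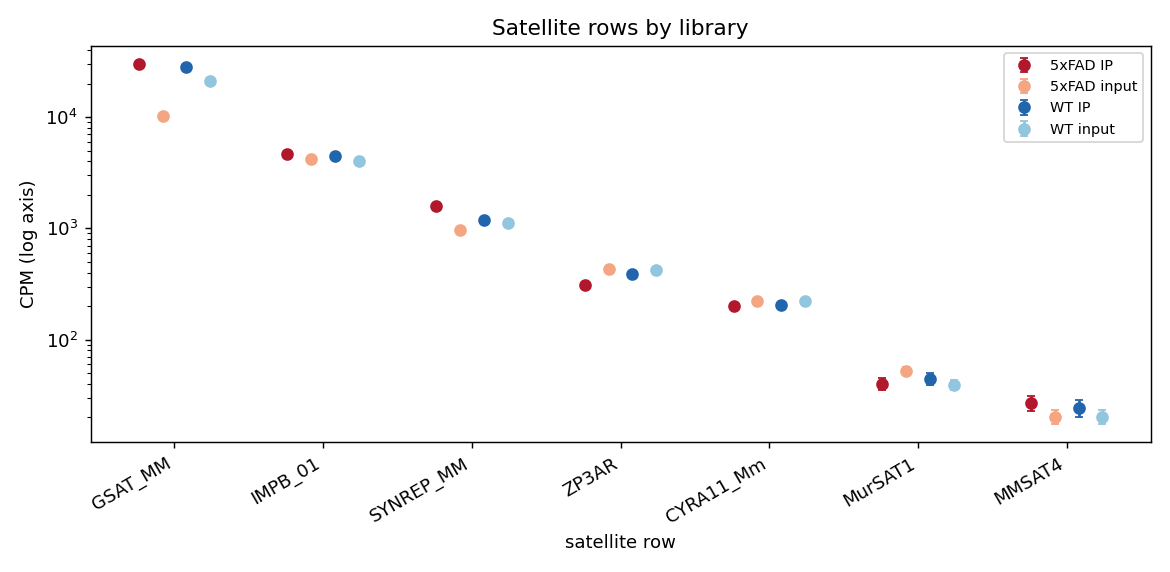
CPM on a log axis (y axis) of the 7 satellite rows (x axis) in 5xFAD IP, 5xFAD input, WT IP and WT input, with exact 95% Poisson intervals where wider than the point. For GSAT_MM the 5xFAD input (10172 CPM) lies below the other 3 libraries, which lie between 20996 and 29900.5 CPM.

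The order of the SINE rows by IP over input was alike in both genotypes. Across the 34 SINE rows the log2 ratios of 5xFAD and WT had a Pearson correlation of 0.96 and a Spearman correlation of 0.90, as a description. No library is shared between the 2 ratios, but the rows share base composition and copy number. Across 8823 gene rows with at least 100 counts the same correlations were 0.20 and 0.086, but the median gene row held 149 counts over the 4 libraries and the least counted SINE row 6536. Across the 1167 repeat rows with that many counts, SINEs included, they were 0.34 and 0.35, with a median of 2856 counts per row. By column totals the log2 ratio was in 33 of 34 SINE rows lower in 5xFAD than in WT, with a median of -0.11 and a range of -0.16 to 0.00064 for 5xFAD minus WT. The median of that difference was -0.17 over all rows, -0.23 over gene rows and -0.0074 over repeat rows, so SINEs lay between gene rows and repeat rows at large. The sign of that difference rests on column totals: for summed SINEs it was -0.10 by column totals, but 0.051 with TMM, 0.11 with size factors of DESeq2, 0.20 by gene rows and 0.084 with the median row set to a ratio of 1.

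**Figure D5:**
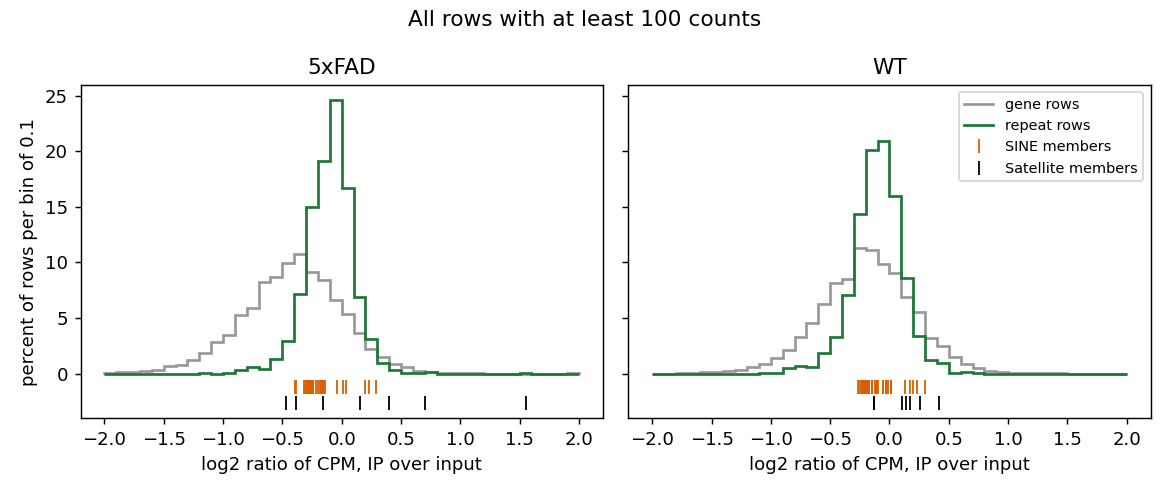
Distribution of the log2 ratio of CPM in IP over input (x axis) as percent of rows per bin (y axis) for 8823 gene rows and 1167 repeat rows in 5xFAD and in WT, with ticks for the SINE and satellite members. The gene rows centre at -0.40 in 5xFAD and -0.18 in WT and the repeat rows at -0.089 and -0.096, and GSAT_MM is the satellite tick at 1.56 in 5xFAD.

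In the authors' deposited table, 2 of the 41 members were called for 5xFAD IP over input, both higher: GSAT_MM at a log2 fold change of 1.95 and SYNREP_MM at 1.10. The authors' deposited table called 21 of 25227 rows higher and 2 lower in that comparison. For WT IP over input the authors' deposited table called 23 rows higher and 1 lower, with 0 members among them, and lists GSAT_MM at 0.61. For WT IP over 5xFAD IP, the direction of that column, the authors' deposited table called 1 row higher and 1 lower, again with 0 members, and lists GSAT_MM at -0.24. For the SINE rows the authors' deposited table lists 0.00018 to 0.68 for 5xFAD IP over input, with B1_Mm highest, and -0.076 to 0.49 for WT IP over input. These values are not on the scale of column totals and should not be read beside those ratios as 1 measure. By column totals GSAT_MM was at 1.56 in 5xFAD and 0.42 in WT. The SINE rows then ran from -0.39 to 0.29 in 5xFAD and from -0.26 to 0.30 in WT.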

How the data were processed

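The authors deposited 1 table of RIP counts, whole numbers of reads per gene symbol or repeat row in 4 libraries, and 1 comparison table with log2 fold changes, log2 CPM, an unadjusted p-value and a call score of -1, 0 or 1 per row, per the file headers. Its count columns equal those of the count table. HISAT2, edgeR 4.0.16 and DESeq2 1.42.1, and both builds mm10 (GRCm38) and mm39 (GRCm39), are named in the submitters' processing notes. The counter, its handling of strand and of reads with many matches, and the spread behind the authors' p-values with 1 library per group are not stated there or in the labels, and those p-values are not printed. Hippocampal counts of 24 libraries, deposited by the authors per Ensembl gene, hold 0 repeat rows and served only to check the gene rows.

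Libraries were grouped by sample title. CPM were computed by the column total, and log2 ratios as IP over input within a genotype, with no prior count. Intervals are exact at 95%: Poisson for CPM, conditional binomial for ratios; they cover counting error only. The ratio step was tested on simulated data. TMM factors came from edgeR 4.0.16 and size factors from DESeq2 1.42.0 in R 4.3.3; other steps used Python 3.11.15. Named rows are all satellites, the 4 most counted rows of each SINE family and the 5 highest and 5 lowest ratios per genotype; B1_Mur4, and other rows named beside them, were chosen after their values were seen. The members, the lists of cell type markers and the 2-fold rule were chosen with earlier results of these data known. The olfactory receptor, Ttn and Camk2a rows were chosen after the data were seen.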

Additional observations from a re-analysis of the deposited data

Results flagged for a closer look

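In 3 members the IP lay on opposite sides of its input in 5xFAD and WT by column totals. The share of all rows that did so is not given here, so this count does not set the members apart. The difference between genotypes was not tested, since each has 1 library pair. B2_Mm2 had a log2 ratio of IP over input of -0.0385 in 5xFAD and 0.0101 in WT. B3A had -0.137 in 5xFAD and 0.00879 in WT. MurSAT1 had -0.39 in 5xFAD and 0.17 in WT, at 273 and 495 counts in 5xFAD IP and input and 254 and 350 in WT IP and input. For B2_Mm2, B3A and MurSAT1 the WT interval included 0. CENSAT_MC, a centromeric satellite row left out by the count minimum, held 6 counts in the 5xFAD IP and 0 in the 5xFAD input, against 0 in the WT IP and 1 in the WT input; a count of 0 allows up to 3.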

How the results depend on the processing

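No paired analysis was possible because each RIP group has 1 library and no test was made; for the same reason no library could be left out. The log2 ratio of IP over input for summed SINEs, -0.15 in 5xFAD and -0.049 in WT, turned to 0.17 and 0.12 with TMM, to 0.23 and 0.12 with size factors of DESeq2, and to 0.20 and 0.11 with the median row set to 1 (an alternative chosen after seeing the data). Scaled by gene rows it was 0.024 in 5xFAD and -0.18 in WT, and as the median of the members -0.25 and -0.15. The difference 5xFAD minus WT, -0.10, turned to 0.051 (TMM), 0.11 (DESeq2), 0.20 (gene rows) and 0.084 (median row set to 1). For summed satellites the ratio of 1.19 in 5xFAD and 0.36 in WT moved to 1.51 and 0.52 with TMM, 1.57 and 0.52 with DESeq2, 1.37 and 0.23 by gene rows, 1.54 and 0.52 with the median row set to 1, 0.15 and 0.14 as the median of the members, and 0.21 and 0.10 without GSAT_MM (chosen after seeing the data). Their difference 5xFAD minus WT, 0.84, moved to 0.99, 1.05, 1.14 and 1.02 under those 4 scalings in that order, to 0.013 as the median of the members and to 0.11 without GSAT_MM. Members at least 2-fold higher in the 5xFAD IP numbered 1, or 2 with TMM, DESeq2 or the median row set to 1, which added SYNREP_MM; in WT they numbered 0 under every setting tried. Count minimums of 10 and 1000 left each of these results within its counting interval or count, but they could hardly move them. The least counted SINE row held 6536 counts, and CENSAT_MC, at 7 counts, stayed out under each minimum. MMSAT4, at 692 counts, was the only member to fall below 1000. A prior count of 0.5, run for the counts of members at least 2-fold higher only, left them at 1 in 5xFAD and 0 in WT. There were 0 rows of structured RNA classes to remove. Depth limits MMSAT4 and MurSAT1 most.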

Other observations

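Zbp1 held 50 counts in the 5xFAD IP and 25 in the 5xFAD input, against 53 in the WT IP and 26 in the WT input, a ratio of CPM in IP over input of 2.77 (1.68 to 4.68) in 5xFAD and 3.16 (1.94 to 5.27) in WT, counting error only. Adar, which encodes the editing enzyme ADAR1, was at 0.66 (0.42 to 1.03) in 5xFAD and 0.98 (0.64 to 1.5) in WT. For Ripk1, Ripk3 and Mlkl the intervals included 1 in each genotype, and Ifih1, the sensor MDA5, was at 0.60 (0.36 to 0.97) in 5xFAD and 0.88 (0.52 to 1.45) in WT. Of the 8823 gene rows with at least 100 counts, 7497 were lower in the IP in 5xFAD and 6099 in WT. The median gene row was at a log2 ratio of -0.40 in 5xFAD and -0.18 in WT. Rn7sk, a polymerase III transcript outside the members' families, held 233 counts in the 5xFAD IP and 32 in its input, against 263 in the WT IP and 17 in its input. Its CPM was 10.1-fold (6.96 to 15.1) higher in the IP in 5xFAD and 24.0-fold (14.7 to 41.8) in WT, above the ratio of each of the 41 members. Rn4.5s, looked up in the same list, went the other way at low counts. It held 3 counts in the 5xFAD IP and 15 in its input, against 3 in the WT IP and 13 in its input. The ratio of CPM in IP over input was 0.28 (0.051 to 0.98) in 5xFAD and 0.36 (0.065 to 1.30) in WT.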
